A study of Homo sapiens with 12 samples.

Results

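The genes described here encode the proteins of the mitochondrial ribosome, and they were followed in HK-2 cells, an immortalised line of human kidney proximal tubule epithelium, exposed to a compound labelled Ra. They were chosen by name alone: a gene symbol of MRPL or MRPS, digits and an optional A or B. The array carried 74 such symbols on probe sets with exactly 1 symbol, and all 74 genes passed the filter on low signal (at least 3 of 12 arrays at 5 log2 units), out of 10050 genes that passed it. A single probe set stood for each gene, the one with the highest mean over the 12 arrays. By the proteins' known places, 24 of the genes belong to the small subunit of the ribosome and 50 to the large subunit, where MRPS18A and MRPS30 are also found despite their names. A counterpart in bacterial ribosomes is known for 44, and 30 are specific to mitochondria.

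The mitochondrial ribosome translates the few messenger RNAs of the mitochondrial genome, all of which encode core subunits of oxidative phosphorylation. Its RNAs are made in the mitochondrion, but every one of its proteins is encoded in the nucleus, translated in the cytosol and imported. The small subunit binds the messenger RNA and decodes it, and the large subunit joins the amino acids. Proximal tubule cells of the kidney are rich in mitochondria, because they drive the reabsorption of solutes from the filtrate.

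The study compared cells given Ra with cells given vehicle after 12 h and after 48 h, in 3 biological replicates for each of the 4 groups, within a set of compounds examined for signatures of toxicity to the kidney. The control groups received the vehicle and otherwise shared the line, the medium and the times of the Ra groups. The identity and dose of Ra, and the vehicle, were not stated in what was available. All cells came from 1 line, grown without serum as far as the medium is listed, so the spread between replicates is a spread between cultures of that line. Values are log2 expression on Affymetrix 3′ arrays, made by the submitters with GCRMA, so a difference of 1 log2 unit is a 2-fold difference on the scale of GCRMA values.

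Of 25 markers of the proximal tubule, 3 passed the filter (PAX8, SLC4A4 and GATM), whereas the endocytic receptors LRP2 and CUBN and most transporters did not. All 8 epithelial markers passed, as did 3 of 9 for fibroblasts and 2 of 6 for podocytes, and none of the endothelial, immune or distal nephron lists. No fibroblast or podocyte marker passed a test of Ra at either time. In the 6-array fit at 12 h PAX8 fell by 0.46 (adjusted p = 0.022) and EPCAM rose by 0.34 (adjusted p = 0.025); at 48 h CDH1 and OCLN fell by 1.48 and 1.56 and CDH6 and CLDN2 rose by 1.57 and 1.91 (adjusted p from 0.014 to 0.042), of which CDH6 and CLDN2 passed without the second Ra array of that time. The part of these markers in the results below was not tested. The second Ra array of 48 h stood apart from the other 11. Its values had an SD of 2.81 log2 units over all probe sets against 3.09 to 3.14 on the others, and an upper quartile of 6.30 against 7.01 to 7.21. The main 48 h results are therefore given with and without it. For ACTB, the gap between the 3′ and 5′ probe sets, which widens as RNA degrades, came to 0.94 ± 0.05 in Ra and 0.91 ± 0.10 in control at 12 h, and 0.95 ± 0.17 and 1.07 ± 0.15 at 48 h (log2 units, SD, n = 3 each).

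The start regions of 5 of these genes are shown because these genes lead the results below. MRPL46, MRPS9, MRPL58 and MRPL27 had the lowest differences at 12 h among genes with a listed start region. MRPS12 passed a limma test at both times, but in different fits: on the 6 arrays of 12 h, and on all 12 arrays for 48 h. On all 12 arrays it did not pass at 12 h (limma adjusted p = 0.580), and on 6 arrays no gene passed at 48 h. Each start region is the RefSeq window of build GRCh38.p14 from 250 bases before the transcript start to 30 bases after it, written 5′ to 3′ along the gene. MRPL46 lies at chr15:88467359-88467638 on the minus strand, MRPS9 at chr2:105037819-105038098 on the plus strand and MRPL58 at chr17:75012420-75012699 on the plus strand. MRPL27 lies at chr17:50373155-50373434 on the minus strand and MRPS12 at chr19:38930694-38930973 on the plus strand. Capitals mark matches, on either strand, to CCGGAAG (the core bound by ETS proteins such as GABPA, a regulator of many nuclear genes for mitochondria) or to AAGATGGCG (a YY1 motif).
MRPL46: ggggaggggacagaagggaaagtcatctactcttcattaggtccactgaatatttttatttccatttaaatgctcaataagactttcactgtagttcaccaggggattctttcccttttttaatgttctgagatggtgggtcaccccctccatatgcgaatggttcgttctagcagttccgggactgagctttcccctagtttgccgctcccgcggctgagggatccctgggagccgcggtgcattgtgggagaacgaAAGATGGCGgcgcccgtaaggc
MRPS9: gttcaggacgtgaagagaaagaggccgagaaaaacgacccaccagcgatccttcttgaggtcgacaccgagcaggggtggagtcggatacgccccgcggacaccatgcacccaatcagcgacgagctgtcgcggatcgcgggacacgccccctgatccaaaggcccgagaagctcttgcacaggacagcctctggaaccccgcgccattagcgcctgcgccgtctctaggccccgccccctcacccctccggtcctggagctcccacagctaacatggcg
MRPL58: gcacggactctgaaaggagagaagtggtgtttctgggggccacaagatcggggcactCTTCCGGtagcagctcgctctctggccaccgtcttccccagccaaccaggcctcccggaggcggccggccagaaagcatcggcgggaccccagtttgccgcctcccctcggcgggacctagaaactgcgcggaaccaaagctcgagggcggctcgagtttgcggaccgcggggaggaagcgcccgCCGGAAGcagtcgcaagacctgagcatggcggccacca
MRPL27: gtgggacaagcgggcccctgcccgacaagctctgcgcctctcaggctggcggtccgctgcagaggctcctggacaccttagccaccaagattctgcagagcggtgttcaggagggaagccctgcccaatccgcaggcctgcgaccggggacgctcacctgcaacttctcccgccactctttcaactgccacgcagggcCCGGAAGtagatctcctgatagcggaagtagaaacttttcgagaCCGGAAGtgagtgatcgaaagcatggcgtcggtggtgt
MRPS12: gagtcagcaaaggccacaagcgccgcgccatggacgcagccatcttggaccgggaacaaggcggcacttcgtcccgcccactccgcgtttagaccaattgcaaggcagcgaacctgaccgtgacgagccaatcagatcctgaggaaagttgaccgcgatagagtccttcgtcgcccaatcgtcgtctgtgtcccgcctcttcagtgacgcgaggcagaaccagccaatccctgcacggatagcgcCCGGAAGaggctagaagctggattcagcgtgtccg
The window of MRPL46 held the YY1 letters 9 bases into the transcript. That of MRPL58 held the ETS letters on the plus strand 8 bases before the start and on the minus strand 193 bases before it. MRPL27 held them 52 and 8 bases before its start and MRPS12 held them 5 bases before. MRPS9 held neither.

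Over all listed windows (250 bases before the start to 50 after), a window was found for 66 of the 74 genes, some with several starts, which gave 82 windows. The ETS letters were present in 31 of the 82 (37.8%) and in 12.8% of the 22198 windows of all protein-coding genes. The YY1 letters were present in 12 (14.6%) against 2.41% of all windows. The NRF1 letters GCATGCGC were present in 6.10% against 3.74%, and the E-box CACGTG, a MYC and USF motif, in 9.76% against 8.34%. No window of these genes held overlapping matches of 2 of the motifs, and 6 of all windows did. A match is a run of letters and not a measured binding site. At 12 h the median difference was -0.24 log2 units over the 28 genes with the ETS letters and -0.25 over the 38 without, and 8 and 14 of them passed the 6-array test described next.

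After 12 h, the transcripts of the mitochondrial ribosome were lower with Ra almost throughout. The mean was lower in 73 of 74 genes, where 48.0% of all genes had a lower mean. The median difference was -0.24 log2 units, a change of -15.1%, against 0.01 over all genes. In 44 of the 74 genes all 3 Ra arrays lay below all 3 controls, against 16.9% of all genes, and in 0 did they all lie above. Each single difference was small: the largest was 1.66-fold, for MRPL46.

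The test was limma with Benjamini-Hochberg adjustment over the 10050 genes at 0.05. In the fit over all 12 arrays, whose common spread includes the 48 h arrays, 0 of the 74 passed at 12 h (15 at an unadjusted p under 0.05), and 0.0299% of all genes passed in either direction. In the fit on the 6 arrays of 12 h, 23 of the 74 fell and 0 rose, against 6.25% of all genes that fell. All 23 had groups that did not overlap. With the replicate number as a block in these 6 arrays, 34 fell, the 23 among them, against 10.7% of all genes. The labels do not say what a replicate number shares, and this pairing was taken from correlations within the same arrays. The count of the 6-array fit rested on single arrays: it was 3 without the second Ra array, 4 without the first and 30 without the third, and 10, 10 and 8 without control replicates 1, 2 and 3. Below, values at 12 h carry the standard error and the adjusted p of the 6-array fit without the block, and no adjusted p of the 12-array fit was under 0.374 for these genes.

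**Figure D1:**
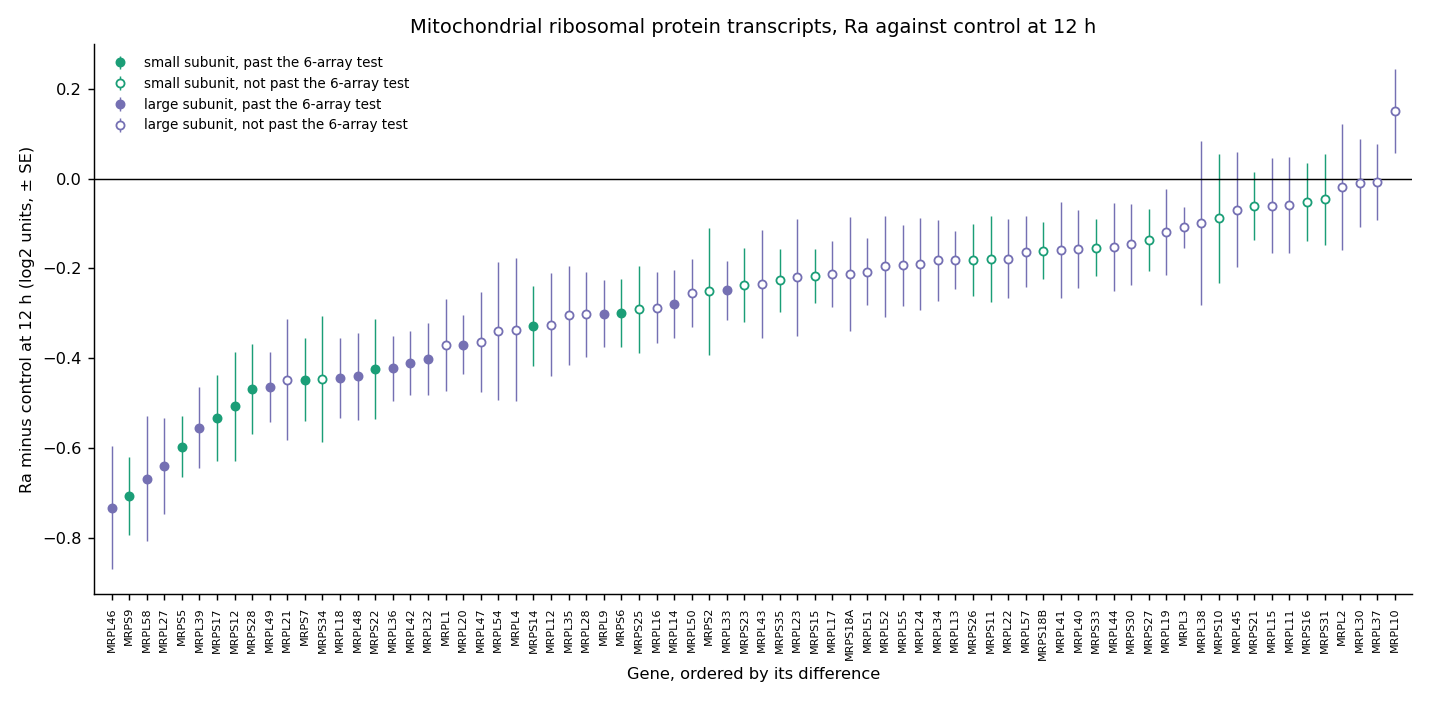
Difference between Ra and control at 12 h (log2 units, vertical axis) for each of the 74 genes, ordered by that difference, with the standard error of the 6-array limma fit as bars; green is the small and purple the large subunit, and filled points passed that test. The genes run from -0.73 for MRPL46 to 0.15 for MRPL10, and the 23 filled points all lie below 0.

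In the large subunit, 14 of 50 genes fell in the 6-array fit. MRPL46, a protein of the central protuberance (the knob of the large subunit beside the bound transfer RNAs), read 8.67, 8.67 and 8.78 log2 units on the control arrays and 8.28, 7.85 and 7.80 with Ra. Every Ra array was below every control, and the first was nearest to them. The difference was -0.73 ± 0.14 log2 units (SE, n = 3 each), with an adjusted p of 0.018. Beside these, GAPDH and ACTB, common control genes, stood at 0.05 and -0.07 at 12 h. MRPL58, a peptidyl-tRNA hydrolase built into the ribosome that can release stalled chains, read 10.11, 9.87 and 10.30 in control and 9.43, 9.23 and 9.63 with Ra. The order of the replicates was the same in both groups, and the groups did not overlap. MRPL58 fell by 0.67 ± 0.14 log2 units (adjusted p = 0.024). MRPL27, whose bacterial counterpart reaches into the peptidyl transferase centre, read 11.50, 11.55 and 11.58 in control and 10.97, 10.67 and 11.08 with Ra. The controls were within 0.044 log2 units of SD while the Ra arrays spread to 0.212. MRPL27 fell by 0.64 ± 0.11 log2 units, with an adjusted p of 0.013.

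Further large-subunit genes that fell included MRPL39, a mitochondria-specific protein related to threonyl-tRNA synthetase, at -0.55 ± 0.09 (adjusted p = 0.013), and MRPL49, also specific to mitochondria, at -0.46 ± 0.08 (adjusted p = 0.013). MRPL18, which binds 5S RNA in bacteria, stood at -0.44 (adjusted p = 0.022), MRPL48 at -0.44, MRPL36 at -0.42, MRPL42 at -0.41 and MRPL32 at -0.40 (adjusted p from 0.014 to 0.027), and MRPL20, an assembly protein of the bacterial large subunit, at -0.37 (adjusted p = 0.016). By place in the subunit, 6 of 11 genes of the central protuberance fell (MRPL18, MRPL27, MRPL33, MRPL46, MRPL48 and MRPL58), with a median over the 11 of -0.30. None of the 4 genes of the stalk, where translation factors dock, passed, and neither did any of the 7 of the exit tunnel, where the new chain leaves towards the inner membrane; their medians were both -0.19. With the replicate block, 7 of the central protuberance fell (MRPL35 in addition), as did MRPL12 of the stalk (adjusted p = 0.043) and MRPL47 of the exit tunnel (adjusted p = 0.0063). Whether the places differ was not tested.

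MRPL10, the protein that anchors the stalk, was the gene with a higher mean. It read 10.11, 10.05 and 10.28 in control and 10.24, 10.23 and 10.42 with Ra, groups that overlap. Its difference of 0.15 ± 0.09 did not pass (adjusted p = 0.315). MRPL37 and MRPL30 were next in order, both at -0.01 and neither past the test (adjusted p = 0.960 and 0.957); after quantile normalization MRPL37 stood at 0.00117.

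In the small subunit, 9 of 24 genes fell in the 6-array fit and all 24 had lower means, with a median of -0.24. MRPS9, whose bacterial counterpart reaches towards the transfer RNA at the P site, read 9.92, 9.72 and 9.81 in control and 9.13, 9.04 and 9.15 with Ra. The gap between the groups was several times the spread within either. MRPS9 fell by 0.71 ± 0.09 log2 units, 1.63-fold, with an adjusted p of 0.0065. MRPS5, which lines the path of the messenger RNA in bacteria, read 10.64, 10.71 and 10.73 in control and 10.08, 10.07 and 10.14 with Ra. Both groups were tight, and MRPS5 had the smallest adjusted p of the 74 genes, 0.0059, at -0.60 ± 0.07.

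MRPS12, part of the decoding centre, read 10.76, 10.80 and 11.10 in control and 10.43, 10.19 and 10.52 with Ra, and fell by 0.51 ± 0.12 (adjusted p = 0.035). MRPS17, an early binder of ribosomal RNA in bacteria, fell by 0.53 ± 0.10 (adjusted p = 0.016), and MRPS28 fell by 0.47 ± 0.10 (adjusted p = 0.025). MRPS6, MRPS7, MRPS14 and MRPS22 made up the 9, with differences from -0.45 to -0.30. Over all alternatives run, MRPL46 passed in 4 of 24 (adjusted p from 0.0056 to 1.00), MRPS9 in 5 of 25 (0.00062 to 1.00) and MRPS5 in 6 of 24 (0.00031 to 1.00). By origin, 16 of the 44 genes with a bacterial counterpart fell (median -0.28) and 7 of the 30 specific to mitochondria (median -0.21).

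**Figure D2:**
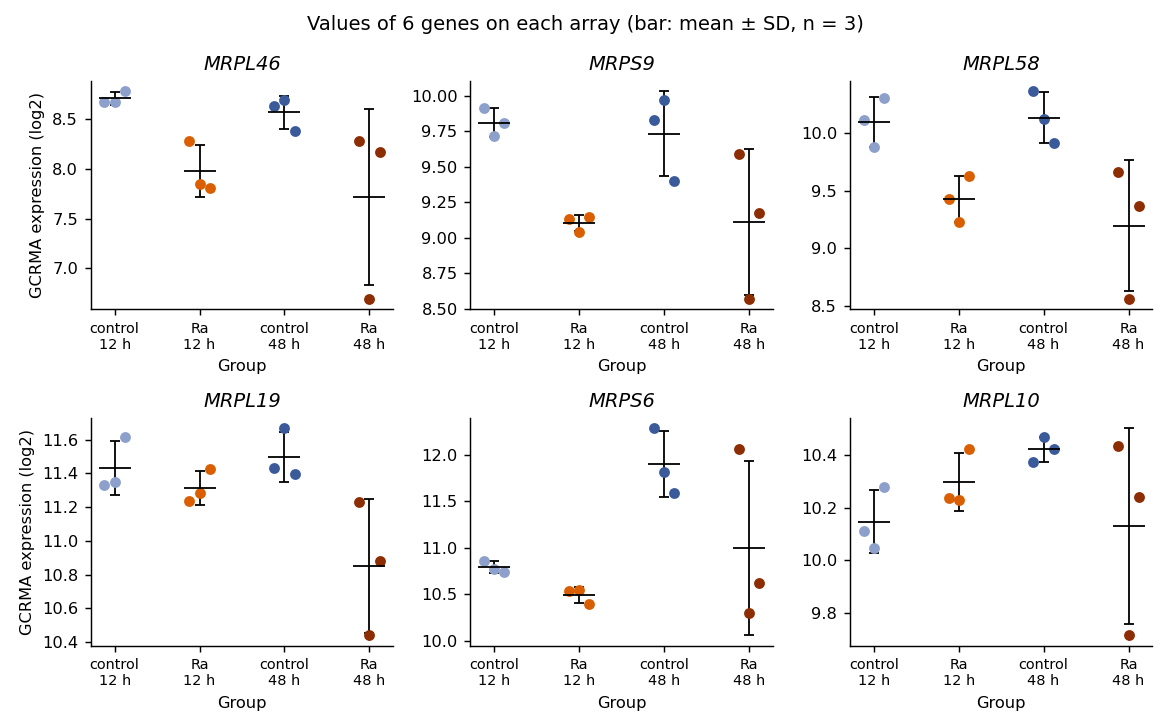
GCRMA expression (log2, vertical axes) of MRPL46, MRPS9, MRPL58, MRPL19, MRPS6 and MRPL10 on each of the 12 arrays, one point an array, with bars for the mean ± SD of each group of 3; each panel has its own scale. MRPL46, MRPS9 and MRPL58 separate the groups at 12 h, and the lowest point of each of the 6 genes is the second Ra array of 48 h.

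Across arrays the lower level was shared by all 3 Ra cultures of 12 h. The median of the 74 genes, each set against its mean in the 12 h controls, was -0.25, -0.31 and -0.19 log2 units on the 3 Ra arrays and -0.04, -0.04 and 0.08 on the controls. On the same Ra arrays the median of all genes was between 0.00 and 0.02, and that of 58 cytosolic ribosomal proteins between -0.03 and 0.04. The number of the 74 genes below every control was 62, 67 and 49 on Ra replicates 1, 2 and 3. The number below the control of the same replicate number was 66, 68 and 67. Neither number was counted over all genes, so the counts of single arrays have no share of all genes beside them. For all 3 Ra arrays below all 3 controls, 44 of the 74 genes stand beside 16.9% of all genes. The third Ra array was the nearest to control. Within a group the genes varied little: the median SD of the 74 was 0.09 in control and 0.11 in Ra at 12 h, 0.15 in control at 48 h and 0.38 in Ra at 48 h, or 0.13 without its second array.

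**Figure D3:**
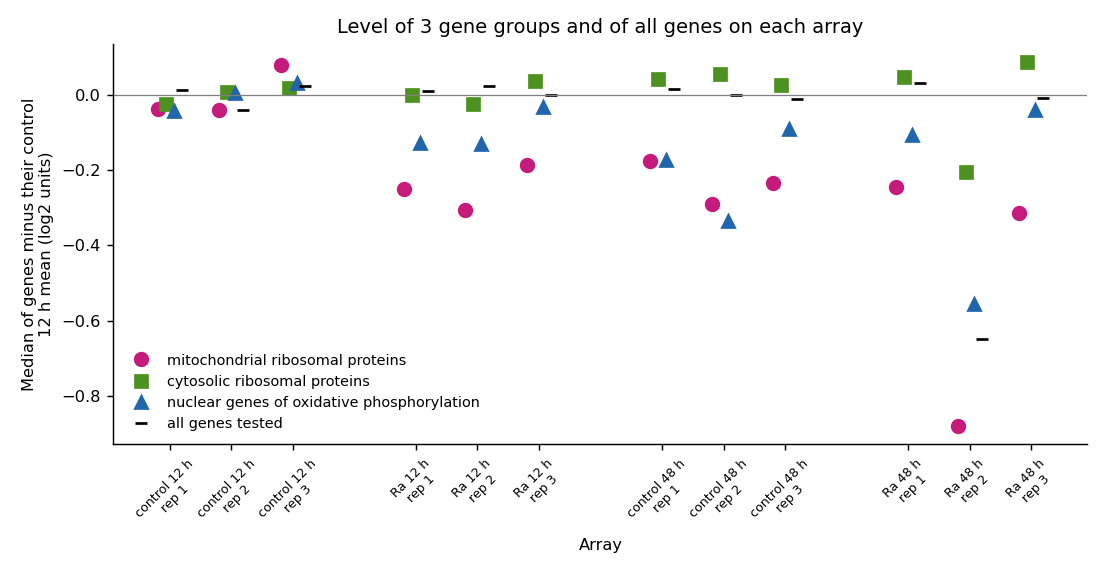
Median over the genes of a group on each array, each gene set against its mean in the 12 h controls (log2 units, vertical axis), for the 74 mitochondrial ribosomal proteins (circles), 58 cytosolic ribosomal proteins (squares), 68 nuclear genes of oxidative phosphorylation (triangles) and all genes (dashes). The circles lie between -0.31 and -0.19 on the Ra arrays of 12 h and the squares near 0, and on the second Ra array of 48 h all genes stand at -0.65 and the circles at -0.88.

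Genes that begin on the other strand near one of these genes were also read at 12 h. A gene on the other strand began within 1000 bases of 19 of the 66 genes with a window (28.8%), against 12.3% of all protein-coding genes. Of 15 such neighbours that are not themselves in the group and were measured, 11 had lower means, against 48.0% of all genes. Their median was -0.08, and 0 passed the 6-array test in either direction. Of all 10050 genes, 628 fell and 738 rose in that fit, so a count of 0 among 15 says little. MRPL27 starts 45 bases from EME1, a subunit of a DNA endonuclease, which stood at -0.17 (adjusted p = 0.478). MRPL49 starts 49 bases from FAU, which encodes a cytosolic ribosomal protein and stood at -0.09 (adjusted p = 0.381). MRPS12 starts 181 bases from SARS2, the mitochondrial seryl-tRNA synthetase, at -0.15 (adjusted p = 0.534). MRPL46 and MRPS11, a small-subunit protein, start 320 bases apart, and MRPS11 stood at -0.18 (adjusted p = 0.251) where MRPL46 stood at -0.73. The difference between the genes of a pair was not tested.

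Among other genes of mitochondrial translation, between 2 and 5 of each list fell in the 6-array fit at 12 h, where 6.25% of all genes fell. The medians were below 0, beside 0.01 over all genes, with some means higher in each list. The lists are short and none was tested. Of 5 measured proteins of the mitochondrial ribosome outside the naming rule, 3 fell in the 6-array fit (median -0.48): MRPS18C at -0.53 (adjusted p = 0.011), PTCD3, a small-subunit protein, at -0.48 (adjusted p = 0.023), and CHCHD1 at -0.27 (adjusted p = 0.033). Of 27 genes of ribosome assembly and rRNA modification, 5 fell (median -0.12), led by NSUN4, an rRNA methyltransferase needed for the subunits to join, at -0.70 (adjusted p = 0.013). Of 18 translation factors, 2 fell (median -0.11): MTRF1L, a release factor, at -0.47 (adjusted p = 0.031) and TACO1, a translational activator, at -0.39 (adjusted p = 0.047). Of 16 genes of mitochondrial transcription and RNA stability, 4 fell (median -0.12), among them PNPT1, a ribonuclease, at -0.63 (adjusted p = 0.0058).

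Lists from outside mitochondrial translation gave a range, to be read beside the same 6.25% of all genes that fell. Ribosome biogenesis in the nucleolus, which makes the cytosolic ribosome, was lower, with 19 of 32 genes that fell and a median of -0.48; NOP16 stood at -1.01 (adjusted p = 0.0040). Cytosolic ribosomal proteins had a median of 0.00 with 2 of 58 that fell, and nuclear genes of oxidative phosphorylation had -0.09 with 3 of 68, both below the share of all genes. The 2 were RPL22L1 and RPL7L1, whose symbols end in L1, a suffix that the list also took in. Of 24 genes of mitochondrial protein import, chaperones and proteases, 11 fell (median -0.27), such as GRPEL1, a partner of the chaperone HSPA9, at -0.58 (adjusted p = 0.012), and OMA1, a stress-activated protease, rose by 0.65 (adjusted p = 0.028). Of 10 measured factors that act on nuclear genes for mitochondria, GABPA rose by 0.47 (adjusted p = 0.026) and 0 fell. NRF1 stood at -0.47 (adjusted p = 0.108), YY1 at 0.10 (adjusted p = 0.238) and MYC at 0.40 (adjusted p = 0.071). Of the 13 protein-coding genes of the mitochondrial genome, 0 were measured here.

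**Figure D4:**
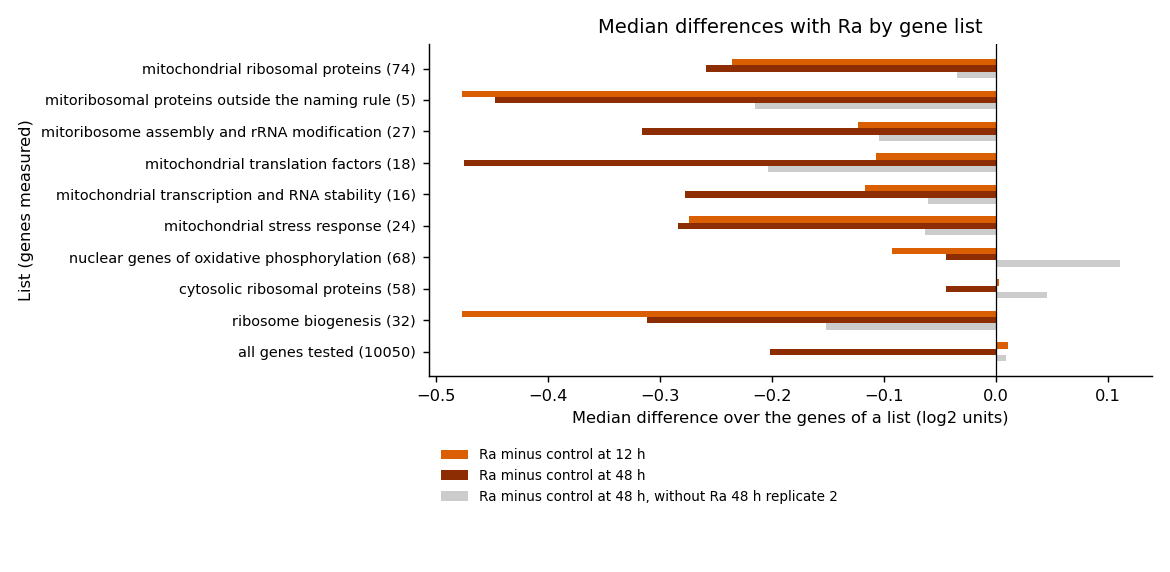
Median difference between Ra and control over the genes of each list (log2 units, horizontal axis), with the number of genes measured after each name; orange is 12 h, dark red 48 h, and grey 48 h without the second Ra array. The 74 mitochondrial ribosomal proteins stand at -0.24 at 12 h, at -0.26 at 48 h and at -0.03 without that array.

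After 48 h the lower level of these genes was close to that of all genes, and 6 of them passed the test. The mean was lower with Ra in 64 of the 74 genes and the median difference was -0.26, but 67.1% of all genes had lower means and their median was -0.20. In the 12-array fit 6 of the 74 fell and 0 rose, against 9.56% of all genes that fell. All 3 Ra arrays lay below all 3 controls in 13 genes, against 18.6% of all genes, and also in 13 when the second Ra array was left out, against 19.2%. Without the second Ra array the median was -0.03, with all genes at 0.01, and 45 of 74 means were lower against 49.0% of all genes. Then 4 fell, all among the 6 (MRPL19, MRPL49, MRPL58 and MRPS12), against 8.13% of all genes. With each array centred on its median, which moved the median of all genes at 48 h from -0.20 to 0.05, 37 of the 74 means were lower, the median was -0.01, and 9 fell and 2 rose, where 12.8% of all genes fell and 15.7% rose. After quantile normalization 13 fell and 2 rose, against 14.5% and 15.5% of all genes. The fit on the 6 arrays of 48 h gave 0 of the 74 (8 at an unadjusted p under 0.05) and 0% of all genes.

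MRPL58 read 10.36, 10.12 and 9.91 log2 units in control and 9.66, 8.56 and 9.36 with Ra at 48 h. The second Ra array was the lowest, but the others were also below every control. MRPL58 fell by 0.94 ± 0.26 log2 units (SE; adjusted p = 0.037), and by 0.62 (adjusted p = 0.041) without that array. MRPS12 read 10.72, 10.79 and 10.52 in control and 10.14, 9.44 and 10.10 with Ra. Here too every Ra array was below every control. It fell by 0.78 ± 0.20 (adjusted p = 0.030), and by 0.56 (adjusted p = 0.026) without the second Ra array.

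MRPL49 read 10.84, 10.78 and 10.50 in control and 10.19, 9.75 and 10.31 with Ra, and fell by 0.62 ± 0.17 (adjusted p = 0.035). MRPL19, a large-subunit protein with a bacterial counterpart at the interface of the subunits, read 11.43, 11.67 and 11.40 in control and 11.23, 10.44 and 10.88 with Ra, and fell by 0.65 ± 0.19 (adjusted p = 0.041). Neither gene's groups overlapped, and both passed without the second Ra array (-0.46 with adjusted p = 0.029, and -0.44 with adjusted p = 0.0495). MRPS18B, a small-subunit protein with the paralogues MRPS18A and MRPS18C, read 12.22, 11.97 and 11.50 in control and 11.55, 10.83 and 11.26 with Ra. Its groups overlapped, because the third control lay below the first Ra array. MRPS18B fell by 0.69 ± 0.20 (adjusted p = 0.043). MRPS23, specific to mitochondria, fell by 0.54 ± 0.16 (adjusted p = 0.046). Without the second Ra array MRPS18B and MRPS23 stood at -0.49 and -0.40 and did not pass (adjusted p = 0.072 and 0.055).

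The number past the 48 h test was sensitive to single arrays in other ways. It was 0 without the first or the second control of 48 h, 2 without the third Ra array and 19 without the first, and 1 without any single one of the 6 arrays of 12 h, which enter only through the common spread. In 8 genes every Ra array lay below every control at both times: MRPL32, MRPL39, MRPL46, MRPL49, MRPL58, MRPS12, MRPS15 and MRPS23. Of all genes 4.23% were lower without overlap at both times. The 2 shares are not alike in origin: at 12 h 44 of the 74 genes had no overlap, against 16.9% of all genes. At 48 h 13 had none, where the share of all genes was 18.6%. A link between the times was not tested for these 8 genes. Of the 23 genes that fell at 12 h in the 6-array fit, 3 (13.0%) were among the 6 of 48 h in the 12-array fit. They are 50% of those 6: MRPL49, MRPL58 and MRPS12. That share stands beside the 23 of 74 genes that fell at 12 h, and whether it is higher was not tested.

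The effect at 48 h was then set against that at 12 h. Of the 74 genes, 0 passed the test of the difference between the effects (1 at an unadjusted p under 0.05), and 0.0199% of all genes passed. The median of the difference was 0.03 log2 units against -0.19 over all genes, and 0.23 against 0.02 without the second Ra array of 48 h. The highest were MRPL23, at the tunnel exit, with 0.63 ± 0.28 (adjusted p = 0.253), MRPL16, which helps to place transfer RNA in bacteria, with 0.51 ± 0.37 (adjusted p = 0.468), and MRPS34 with 0.42 ± 0.33 (adjusted p = 0.501). The lowest were MRPS10 at -0.70 ± 0.34 (adjusted p = 0.284), MRPS31 at -0.62 ± 0.41 (adjusted p = 0.423) and MRPS6 at -0.60 ± 0.49 (adjusted p = 0.521), all of the small subunit. Without that array MRPL23, MRPL16 and MRPS34 stood at 0.74, 0.81 and 0.67, and MRPS10, MRPS31 and MRPS6 at -0.44, -0.19 and -0.26, with adjusted p from 0.092 to 0.749. Across the 74 genes the differences at 12 h and 48 h, which share no array, had a Pearson correlation of 0.34 and a Spearman correlation of 0.27, against 0.08 and 0.10 over all 10050 genes. These are descriptions over genes measured on the same arrays, which are not independent. Without the second Ra array the Pearson correlation was 0.29, against 0.11 over all genes. Then 44 of the 74 genes instead of 63 were lower at both times, beside 2553 instead of 3465 of all 10050 genes.

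**Figure D5:**
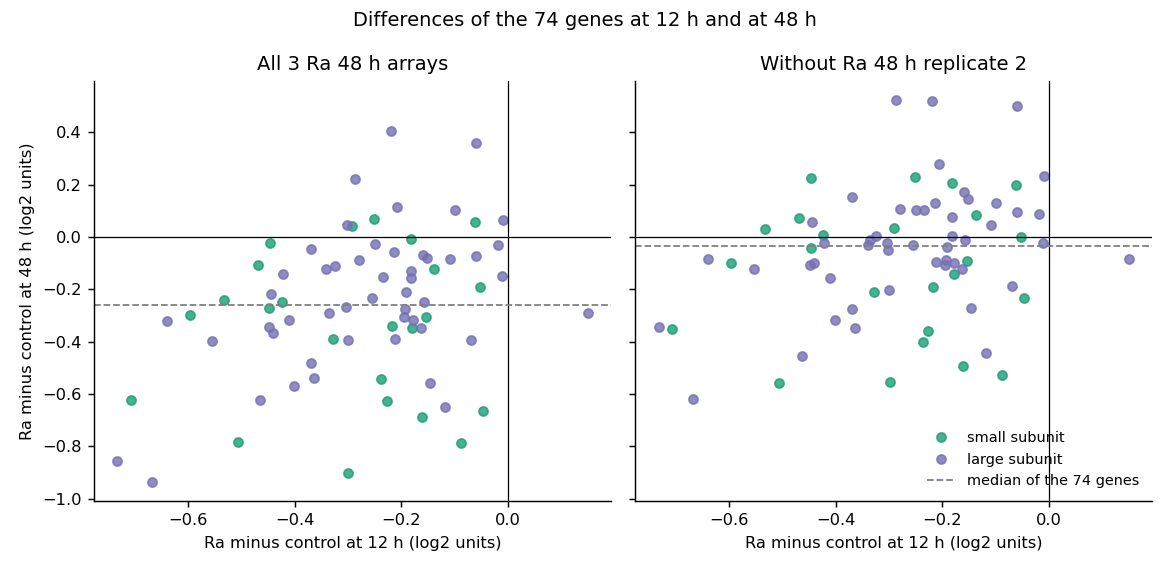
Difference between Ra and control at 12 h (horizontal axis) and at 48 h (vertical axis), both in log2 units, for the 74 genes, with all 3 Ra arrays of 48 h on the left and without the second on the right; green is the small subunit, purple the large subunit, and the dashed line the median at 48 h. Nearly all points lie left of 0 in both panels, while the dashed line moves from -0.26 to -0.03.

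In the vehicle cultures most of these transcripts had lower means at 48 h than at 12 h. The size of this differed by the kind of probe set, as given further below. The mean was lower at 48 h in 60 of the 74 genes and higher in 14, against 49.4% of all genes with a lower mean, and the median difference was -0.25 against 0.01 over all genes. In the 12-array fit 10 fell and 1 rose, where 10.1% of all genes fell and 9.37% rose. In the fit on the 6 control arrays 22 fell, against 16.6% of all genes, and MRPS6 and MRPL45, a protein of the tunnel exit (0.39), rose; all 11 genes of the 12-array fit were among these 24. This comparison shares its control arrays with the comparisons of Ra, so its values stand beside theirs and were not correlated with them.

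MRPL16 read 9.25, 9.20 and 9.20 log2 units in control at 12 h and 7.89, 8.13 and 8.72 at 48 h. The later cultures were all lower and spread more. MRPL16 fell by 0.97 ± 0.26 (SE; adjusted p = 0.023), while Ra against control stood at -0.29 at 12 h and at 0.22 at 48 h, or 0.52 without the second Ra array. MRPL54, of the stalk, read 9.29, 9.09 and 9.67 at 12 h and 8.51, 8.33 and 8.81 at 48 h, and fell by 0.80 ± 0.21 (adjusted p = 0.020). MRPL23 read 10.28, 10.36 and 10.57 at 12 h and 9.62, 9.43 and 9.89 at 48 h, with no overlap. MRPL23 fell by 0.76 ± 0.20 (adjusted p = 0.022). The others that fell were MRPS28, MRPL18, MRPS17, MRPL27, MRPL20, MRPL51 and MRPL33, from -0.71 to -0.46. MRPL27 and MRPS17 stood at -0.66 and -0.70 here. MRPS28, MRPL18, MRPS17, MRPL27, MRPL20 and MRPL33 also fell with Ra at 12 h in the 6-array fit. MRPL16, MRPL54, MRPL23 and MRPL51 did not pass that test. Both comparisons use the control arrays of 12 h, so a high value there lowers both differences, and a link between them was not tested.

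MRPS6 went the other way with time. It read 10.86, 10.78 and 10.74 in control at 12 h and 12.29, 11.81 and 11.59 at 48 h, and with Ra 10.54, 10.55 and 10.39 at 12 h and 12.06, 10.30 and 10.63 at 48 h. The controls of 48 h were all above those of 12 h, whereas the Ra arrays of 48 h were split, the first near the controls and the others far below. MRPS6 rose by 1.11 ± 0.35 in the controls (adjusted p = 0.042). Ra against control stood at -0.30 ± 0.08 at 12 h in the 6-array fit (adjusted p = 0.041) and at -0.90 ± 0.35 at 48 h (adjusted p = 0.096), or -0.55 (adjusted p = 0.254) without the second Ra array. SLC5A3, a carrier of myo-inositol, lies within the MRPS6 locus, and which transcripts the probe set of MRPS6 reads was not tested.

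Single arrays bore on the comparison of the controls. The count of 11 became 0 without the second control of 48 h or the third of 12 h, 2 without the first and 1 without the second control of 12 h, 1 without the first control of 48 h, 7 without the first Ra array of 12 h, and 31 without the second Ra array of 48 h. Genes read by probe sets with the suffix _at, which match 1 gene by design, had a median of -0.07 (30 genes), and those read by _s_at or _x_at probe sets, which can match several transcripts, had -0.32 (44 genes). For Ra against control at 12 h the same medians were -0.22 and -0.27.

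Further probe sets of the same genes were mostly lower with Ra as well, with exceptions. The 74 genes had 137 probe sets, of which 111 passed the filter, and 37 of these were further probe sets of 24 genes. At 12 h, 28 of the 37 had lower means, with a median of -0.17 against -0.21 for the chosen probe sets of the same genes. The other 9, of 8 genes, had higher means where the chosen probe set was lower. Those of MRPS14, a small-subunit protein with a bacterial counterpart, stood at 0.24 and -0.33. The further probe set of MRPS14 had 12 h means of 5.46 in control and 5.70 with Ra, near the filter, and the chosen one 9.73 and 9.40. Sizes differed too: a further probe set of MRPS12, with means of 7.00 in control and 5.85 with Ra, stood at -1.15 where the chosen one stood at -0.51. At 48 h, 35 of the 37 were lower, with a median of -0.36 against -0.31, and 26 without the second Ra array, with -0.14 against -0.10. Of the 23 genes that fell at 12 h, 6 had further probe sets, and 8 of these 9 were lower. No pair of probe sets of a gene had opposite signs with both differences at 0.3 log2 units or more. The mean of the chosen probe set over 12 arrays ran from 7.78 for MRPL2 to 13.56 for MRPL3, all above the filter; levels of different probe sets have no common scale.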

How the data were processed

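The deposited values are log2 expression that the authors made with GCRMA, per the submitters' processing notes; which arrays were normalized together was not stated in what was available. GCRMA shrinks low signals, and the chosen probe sets of these genes all lie well above that range, while some further probe sets lie near it. The 12 arrays (3 biological replicates in each of 4 groups, per the labels) held 0 identical pairs and 0 columns without a label. Their number limits the precision.

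Probe sets were named through the platform annotation (41097 with 1 symbol, 1801 with several, 11777 unnamed), checked against RefSeq by Entrez number (41043 matched, 0 symbols updated). MRPL53 and MRPS24 are read by probe sets with several symbols and were left out. Probe sets with 1 symbol and at least 3 of 12 arrays at 5 log2 units were kept (17339), and the one with the highest mean stood for its gene, which gave 10050 genes.

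The limma package (3.58.1, R 4.3.3) estimated the 4 group means from 12 arrays (8 residual degrees of freedom), or 2 from the 6 arrays of a comparison (4), with a trended prior. Adjusted p-values are Benjamini-Hochberg values over the 10050 genes, with 0.05 as the threshold. The fitting code was run on simulated data with independent noise, the same spread of a gene in every group and no outlying array. The arrays here differ from that, so the run does not show which fit suits them. Lists are described by counts and medians, with no test of a list. Replicate numbers were checked for pairing by the correlation of same-numbered arrays' deviations from their group means: 0.18, 0.42 and 0.34 at 12 h, all over 0.1, and 0.30, -0.22 and 0.10 at 48 h. The numbers were taken to pair the samples at 12 h only, from the data, since the labels do not say what a number shares.

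Members, lists and named genes were chosen with earlier results of these data known. Named are the genes past a test, up to 10 in each direction, or the 3 highest and 3 lowest where fewer than 6 passed, and up to 3 per list. Alternatives were the filter, the choice of probe set, normalization, moderation, array weights, the replicate block, the 6-array fits and leaving out each array.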

Additional observations from a re-analysis of the deposited data

How the results depend on the processing

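The direction of the median at 12 h held under every alternative run, and the counts of genes past a limma test moved widely. Of the 74 genes, the 12-array fit called 0 at 12 h, 5 after quantile normalization, 5 with arrays centred on their median, 35 with array weights, 23 on 6 arrays and 34 on 6 arrays with the replicate block, all lower. At 48 h it called 6, against 0 with no filter, 15 after quantile normalization (13 fell), 11 with centred arrays (9 fell), 3 with no intensity trend, 27 with array weights (16 fell), 0 on 6 arrays and 0 on 6 arrays with the replicate block. For the difference between the times it called 0, against 1 after quantile normalization, 1 with centred arrays and 32 with array weights, and the median of 0.03 became 0.27 and 0.30 under the first and second. For control 48 h against 12 h it called 11, against 3 with no filter, 5 without _s_at and _x_at probe sets (median -0.072), 29 after quantile normalization, 26 with centred arrays, 48 with array weights and 24 on 6 arrays. The causes were not tested.

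Leaving out 1 array at a time gave counts of 0 to 7 at 12 h, 3 to 30 at 12 h on 6 arrays, 0 to 19 at 48 h, 0 to 1 for the difference and 0 to 31 for the controls; the medians ran from -0.28 to -0.20, from -0.38 to -0.03, from -0.10 to 0.23 and from -0.28 to -0.22 for the 12 h, 48 h, difference and control comparisons. With the replicate number as a block in the 12-array fit the counts were 0, 9, 0 and 13. MRPL37 at 12 h turned from -0.0083 to 0.00117 after quantile normalization and 0.00811 with array weights, and ran from -0.068 to 0.076 as single arrays were left out, above 0 without the second Ra or the third control array. MRPL30 at 12 h ran from -0.11 to 0.056, above 0 without the first or second Ra array or the first control. Over 859 alternative values of the 36 named differences, 657 kept direction and side of the threshold, 144 were no longer past it, 51 came to pass it, and 7 changed sign, the 7 above. The reference was the 12-array fit, in which no named difference at 12 h or between the times passed. For those differences, keeping the side means that they again did not pass. The signal of the chosen probe sets of these genes lies above the range where GCRMA's background model weighs. Depth cannot be given for arrays, whose number limits the precision.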
